A study of Sus scrofa with 21 samples.

Results

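The genes described here are 9 transcription regulators of lipid metabolism: the peroxisome proliferator-activated receptors PPARA, PPARD and PPARG, their retinoid X receptor partners RXRA and RXRB, the liver X receptors NR1H2 (LXR beta) and NR1H3 (LXR alpha), and the sterol regulatory element-binding proteins SREBF1 and SREBF2. They were taken as every probe to which the array's scanner files give 1 of these names, which found 21 of the 60306 probes that are not controls, and 9 of the 9069 genes that the scanner files name by a current symbol. PPAR and LXR proteins are receptors for fatty acids and oxysterols, respectively. They bind DNA as partners of an RXR and switch on genes of fatty acid use, lipid storage and cholesterol export. SREBP proteins are held in the endoplasmic reticulum by SCAP and INSIG while sterols are plentiful, and are otherwise carried to the Golgi, cut by the site 1 and site 2 proteases and released to the nucleus, where SREBF1 drives fatty acid synthesis and SREBF2 drives cholesterol synthesis and uptake. In blood, PPARG and the LXRs are best known from monocytes and macrophages, in which they control lipid uptake and efflux.

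The study set SLAdd (DD) minipigs against Large White (LW) pigs to describe the physiological state of the DD herd. The DD line is inbred and was selected to be homozygous at the SLA locus, the pig major histocompatibility complex, so each DD animal is a sample of 1 line, and LW is an outbred farm breed. All animals were 60 days old and had free access to a standard diet. Total RNA from whole blood was labelled with Cy3 and hybridized to an Agilent custom pig array, 1 array per pig. There were 10 DD pigs, born in 5 litters, and 11 LW pigs, born in 6. Each of the 3 chips held both breeds, with 7, 8 and 6 arrays in all, of which 3, 4 and 3 were DD. The values are the log2 intensities of the matrix that the authors normalized by quantiles, and a log2 fold change (FC) is the DD minus the LW value. A breed difference was called when its Benjamini-Hochberg adjusted p was below 0.05 in a limma model of breed and chip in which littermates formed a random block, adjusted over all 35578 features.

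The arrays differed in brightness, taken as the 75th percentile of an array's processed signal, in log2. It was 7.53 ± 0.54 (SD, n = 10) on DD arrays and 8.22 ± 0.38 (SD, n = 11) on LW arrays, and the DD means of chips 1, 2 and 3 were 7.95, 7.55 and 7.09 against LW means of 8.02, 8.31 and 8.36. Of the blood cell markers, all 7 erythroid and all 6 platelet genes tested, and 11 of 13 T cell genes, had a probe well above background on every array, against 1 of 7 genes of adipose tissue and liver. The same held for 8 of 12 monocyte, 8 of 10 granulocyte, 4 of 6 B cell and 8 of 10 cytotoxic genes. The share of all probes well above background ran from 44.7% to 63.8% by array.

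The probes decide what each value can say about its gene, so the sequences that bear on the results are shown first, as the scanner files give them. The 4 PPARG probes fall in 2 places. Of these, 3 tile the end of the coding sequence and share 38 bases, shown in capitals, and the other, O15024, has no bases in common with them over a stretch of 15 or more.
PPARG A_72_P636927: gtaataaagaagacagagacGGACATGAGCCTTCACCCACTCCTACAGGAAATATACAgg
PPARG A_72_P441339: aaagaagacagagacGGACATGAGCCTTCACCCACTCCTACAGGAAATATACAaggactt
PPARG A_72_P146711: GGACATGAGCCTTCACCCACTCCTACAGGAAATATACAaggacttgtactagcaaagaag
PPARG O15024: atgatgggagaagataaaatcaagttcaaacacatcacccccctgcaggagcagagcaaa

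The 2 PPARD probes start at bases 1091 and 1293 of their transcript record and do not overlap. They are shown because the breed difference of PPARD was unequal between them.
PPARD A_72_P443751: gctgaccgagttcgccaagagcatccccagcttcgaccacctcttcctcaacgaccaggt
PPARD A_72_P165296: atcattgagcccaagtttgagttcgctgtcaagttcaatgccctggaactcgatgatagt

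Of the 3 RXRB probes, 2 share 18 bases, shown in capitals, and the third, A_72_P205407, starts at base 2308 of its transcript record. They are shown because neighbouring and distant RXRB probes differed in sign.
RXRB A_72_P537730: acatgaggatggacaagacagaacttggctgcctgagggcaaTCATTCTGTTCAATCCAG
RXRB A_72_P537734: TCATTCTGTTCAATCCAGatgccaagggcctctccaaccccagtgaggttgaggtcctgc

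NR1H2 has 1 probe, and its orientation is in doubt. All 3 forward reading frames of its 60 bases hold a stop codon, while the 3 frames of the reverse complement hold none. The other 20 probes each have at least 1 forward frame without a stop.
NR1H2 O15021: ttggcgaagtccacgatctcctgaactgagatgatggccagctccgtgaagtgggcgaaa
NR1H2 O15021, reverse complement: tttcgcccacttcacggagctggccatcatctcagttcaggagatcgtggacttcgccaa

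Of the 9 regulators 3 were called, PPARD, RXRA and SREBF2, and all 3 were higher in DD pigs. Over all features, 21.0% were called in either direction, 11.4% as higher in DD pigs and 9.58% as lower, and the 3 of 9 are to be read beside these shares. The members' median log2 FC was 0.35, beside -0.04 over all features, and 7 of the 9 log2 FC were above 0, with PPARA and NR1H2, which were near background, counted among the 9. All 9 genes kept at least 1 probe after the 25% of probes with the lowest mean were removed, 19 of the 21 probes were kept, and 10 of the 21 were well above background on all 21 arrays. No spot of a member was flagged as an outlier by the feature extraction software. No member had DD and LW values that did not overlap, which held for 0.382% of all features. Blood is a mixture of cells, and in whole-blood RNA fewer cells of a type and less RNA per cell cannot be told apart.

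**Figure D1:**
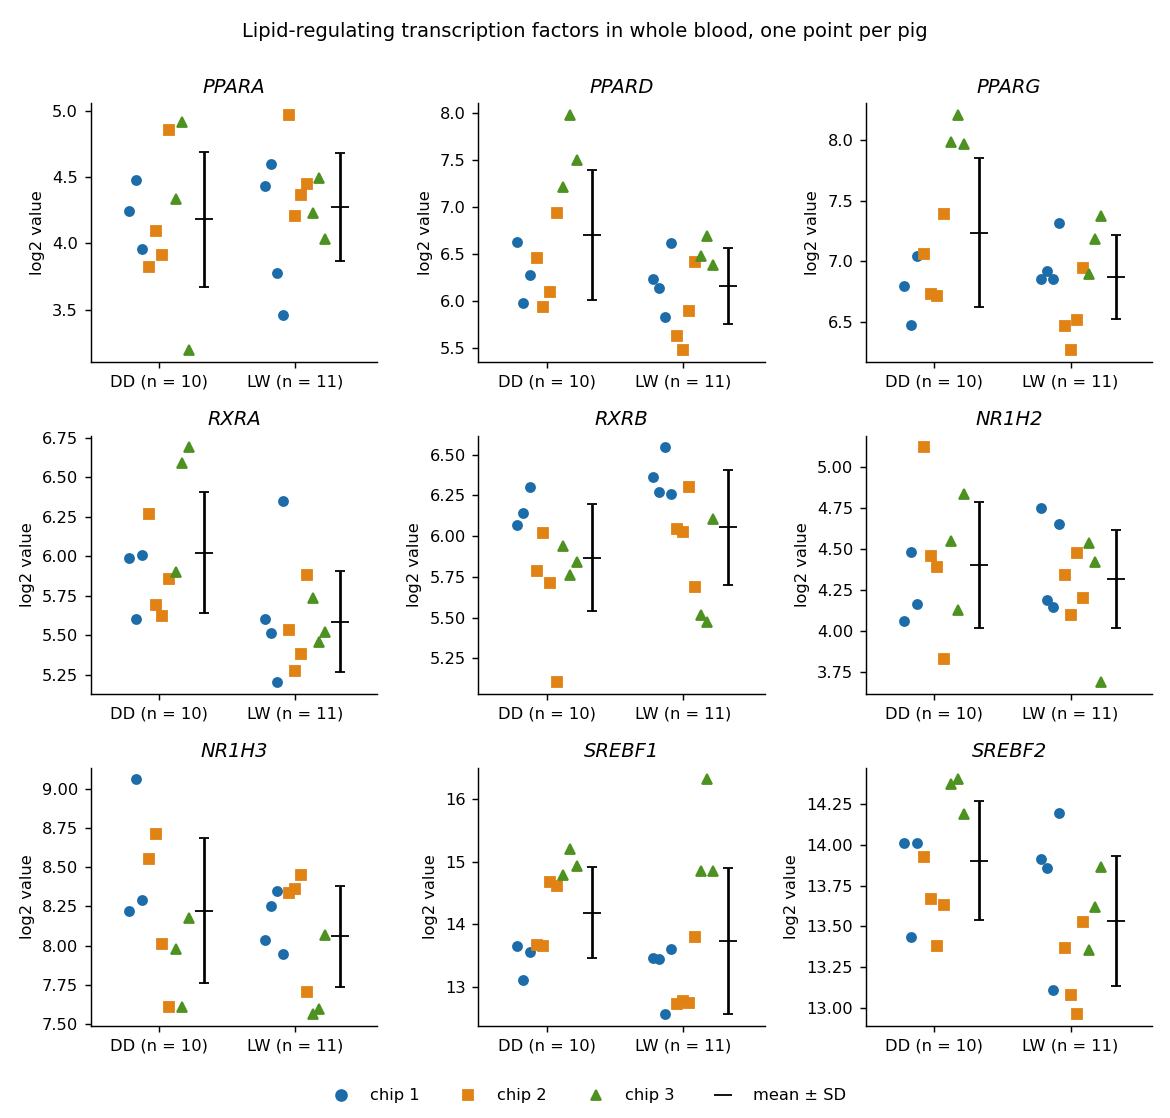
Log2 value of each of the 9 regulators in every pig, with DD (n = 10) and LW (n = 11) side by side, the chip shown by colour and symbol, and the mean ± SD beside the points. The vertical scale differs between panels. The 3 DD arrays of chip 3 are the highest of all 21 for PPARD and PPARG, and the LW arrays of chip 3 are high for SREBF1.

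Among the PPARs, PPARD, a receptor expressed in most tissues that promotes fatty acid oxidation, was called. The PPARD gene lies on chromosome 7 at 31222533 to 31295221 (Sscrofa11.1). Its log2 values ran from 5.93 through a median of 6.54 to 7.97 in DD pigs, and from 5.47 through 6.23 to 6.69 in LW pigs. In all, 4 DD pigs lay above every LW pig and 4 LW pigs below every DD pig, and the other animals overlapped. The log2 FC was 0.53 ± 0.16 (SE), a 1.44-fold difference (limma, adjusted p = 0.028). Over litter means of chip-corrected values, the breeds differed by 0.51 (two-sided exact permutation over every division of the litters, p = 0.0152, where 0.00216 is the smallest p possible), and 4 of the 5 DD litters lay above all 6 LW litters. This was 1 of 9 such tests, 1 per regulator, and none of the 9, RXRA and SREBF2 included, passed after Benjamini-Hochberg adjustment over them.

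The PPARD difference was not the same at its 2 probes or on the 3 chips. The downstream probe, A_72_P165296, had a log2 FC of 0.79 ± 0.23 and was called in the fit over single probes (limma, adjusted p = 0.0373, in a fit that called 11.3% of probes), and the upstream probe, A_72_P443751, had 0.27 ± 0.12 (adjusted p = 0.131). The median signal of the downstream probe was 3.15 times its local background on DD arrays and 3.02 times on LW arrays. At the upstream probe the medians were 4.65 and 5.64 times, so there the ratio was lower in DD pigs while the normalized value was higher. On chips 1, 2 and 3 the DD pigs exceeded the LW pigs in PPARD by 0.09, 0.50 and 1.05. This is the order in which the DD arrays became dimmer against the LW arrays, and with the array's brightness as a covariate the log2 FC was 0.04 ± 0.13 (adjusted p = 0.989). Without chip 3 it was 0.32 ± 0.20 (adjusted p = 0.523). The call was also lost when DD 21, DD 23, LW 12, LW 18 or LW 24 was left out, with log2 FC of 0.45 to 0.51. A brighter probe, which the scanner files name Ppard and which was therefore no member, gave 0.07 ± 0.11 (limma over single probes, adjusted p = 0.737). Its median signal was 16.9 times its local background on DD arrays and 25.7 times on LW arrays. With the 2 spellings joined the log2 FC was 0.37 ± 0.11 (adjusted p = 0.0236).

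PPARG, the receptor of fat cell formation that monocytes gain as they become macrophages, did not pass the test (log2 FC 0.35 ± 0.14, adjusted p = 0.0783). The gene lies on chromosome 13 at 68301566 to 68433951. Values were 6.47, 7.05 and 8.21 (lowest, median and highest) in DD pigs and 6.26, 6.90 and 7.38 in LW pigs. The 4 DD pigs above every LW pig included all 3 of chip 3. By chip, the difference was -0.22, 0.43 and 0.90 on chips 1, 2 and 3 (breed by chip interaction, p = 0.00649, limma adjusted p = 0.328 over all features, of which 0 passed at 0.05). With brightness as a covariate the log2 FC was -0.06 ± 0.12. PPARG passed when DD 6 (0.44, adjusted p = 0.0194) or LW 7 (0.41, adjusted p = 0.0348) was left out. It also passed without chip 1 (0.64, adjusted p = 0.01), with a background offset of 50 (0.31, adjusted p = 0.0409) and with its brightest probe, O15024, in place of the mean (1.01, adjusted p = 0.0291).

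The mean over the PPARG probes hides a split between O15024 and the 3 tiling probes. These differ in both sequence and signal, so the 2 cannot be told apart here. At O15024, the log2 values were 10.74, 12.48 and 13.65 in DD pigs and 10.02, 11.62 and 13.21 in LW pigs, and 9 of 10 DD pigs lay above the LW median. Its log2 FC was 1.01 ± 0.32 (limma over single probes, adjusted p = 0.0466). The 3 tiling probes at the end of the coding sequence had log2 FC of 0.07 to 0.20, and none of them was called. The signal of O15024 had a median of 160 times the local background on DD arrays and 108 times on LW arrays. The tiling probes had medians of 2.19 to 2.96 times their background. The breed difference of O15024 ran from -0.15 on chip 1 to 1.32 on chip 2 and 1.90 on chip 3.

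PPARA, the receptor of fatty acid oxidation in liver and muscle, was not measurable in these samples. Each of its 3 probes was well above background on 1 of the 21 arrays, and only A_72_P775972 passed the filter on low values. The gene, on chromosome 5 at 3302755 to 3321091, had values of 3.19, 4.17 and 4.92 in DD pigs and 3.46, 4.36 and 4.97 in LW pigs, which overlapped throughout (log2 FC -0.10 ± 0.19, adjusted p = 0.737). No fold change is given weight at this signal.

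**Figure D2:**
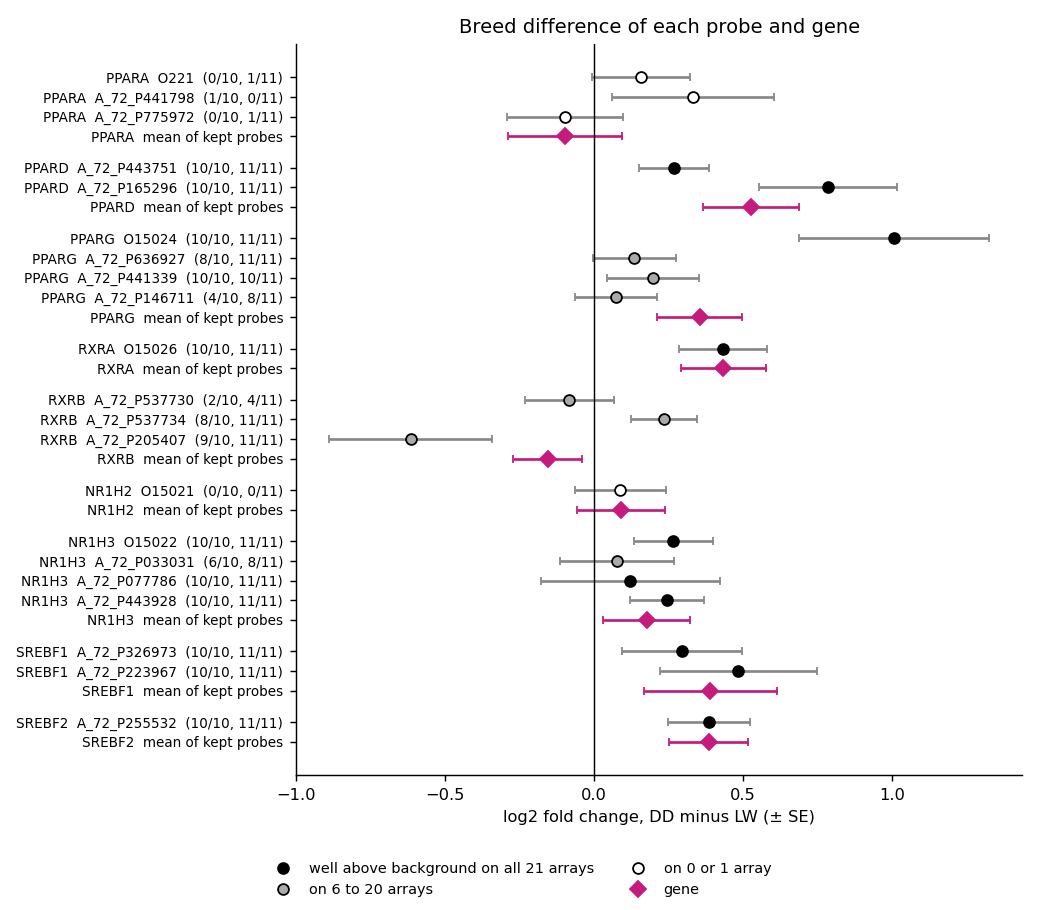
Log2 fold change (DD minus LW, ± SE) of each of the 21 probes, ordered along the transcript record within a gene where positions are given, and of each gene as the mean of its kept probes. Symbols show on how many of the 21 arrays a probe was well above background, and the counts for DD and LW stand in the labels. PPARG O15024 at 1.01 and PPARD A_72_P165296 at 0.79 are the 2 probes called, and RXRB A_72_P205407 at -0.62 lies farthest below 0.

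Of the RXR partners, RXRA was called and RXRB was not. RXRA, the broadly expressed RXR with which PPARs and LXRs pair in myeloid cells, was called as higher in DD pigs. It lies on chromosome 1 at 273698842 to 273797622 and has 1 probe, which was well above background on all 21 arrays, though with a median signal of only 3.14 times its local background on DD arrays and 3.03 times on LW arrays. Values were 5.60, 5.94 and 6.69 in DD pigs and 5.20, 5.52 and 6.35 in LW pigs. All 10 DD pigs were above the LW median, and 7 of 11 LW pigs were below every DD pig. The log2 FC was 0.43 ± 0.14, or 1.35-fold (limma, adjusted p = 0.0365), and the litter means differed by 0.43 (two-sided exact permutation, p = 0.0195 before adjustment). Without the litter block the adjusted p was 0.0557. The call was also lost with no filter on low values (limma, adjusted p = 0.0605) and with values recomputed from the intensities (adjusted p = 0.0527). The correlation between littermates was estimated as negative (-0.11). The fit with the block called 7460 features and the fit without it 5106, so the block gave more calls, not fewer.

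RXRA was higher in DD pigs on each chip, by 0.20, 0.34 and 0.82 on chips 1, 2 and 3, again in the order of the brightness gap. On chip 3 the signal was 2.02, 1.84 and 2.19 times the local background on DD arrays. On the LW arrays of that chip it was 2.17, 2.08 and 1.90 times. There the ratios of the breeds overlapped, while the normalized values differed by 0.82. With brightness as a covariate the log2 FC of RXRA was 0.01 ± 0.12 (adjusted p = 0.997), and without chip 3 it was 0.26 ± 0.18 (adjusted p = 0.547). The call was lost when any 1 of 11 animals was left out (DD 1, 8, 10, 21 or 23, or LW 5, 12, 14, 18, 22 or 24), with log2 FC of 0.38 to 0.44 and adjusted p of at most 0.0763.

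RXRB, the RXR gene of the extended SLA region, was not called (log2 FC -0.16 ± 0.12, adjusted p = 0.343). It lies on chromosome 7 at 25236005 to 25242842, beyond the class II gene SLA-DOA at 25178866 to 25182665. Values were 5.10, 5.89 and 6.30 in DD pigs and 5.48, 6.10 and 6.55 in LW pigs, with 2 of 10 DD pigs above the LW median. The probe A_72_P205407 had 4.96, 7.48 and 7.99 in DD pigs and 6.33, 7.95 and 9.01 in LW pigs, a log2 FC of -0.62 ± 0.27 (limma over single probes, adjusted p = 0.141). The overlapping pair shown above gave -0.08 ± 0.15 and 0.23 ± 0.11, neither of them called. A_72_P537730 of that pair was well above background on 6 of the 21 arrays, A_72_P537734 on 19.

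Set against each other within the same array, RXRB minus RXRA after chip correction was -0.15 ± 0.40 in the DD pigs (SD, n = 10) and 0.43 ± 0.46 in the LW pigs (SD, n = 11). The breeds differed by -0.59 (two-sided exact permutation over litters, p = 0.013, adjusted over the 6 pairs 0.0779). The limma fit of the same difference gave -0.59 ± 0.18 (adjusted p over the 6 pairs = 0.0219), so this pair passed in 1 of the tests and not in the other. RXRB had -0.11 and RXRA 0.01 (DD minus LW) with brightness as a covariate, and the pair itself was not fitted with it. PPARD minus PPARA did likewise, with 0.63 over litter means (exact permutation, adjusted p = 0.117) and 0.63 ± 0.23 in limma (adjusted p = 0.0341), but PPARA was near background. The differences of PPARG minus PPARA (0.47), PPARG minus PPARD (-0.16) and SREBF2 minus SREBF1 (-0.01) had exact permutation p of 0.0628 to 0.974 before adjustment. NR1H3 minus NR1H2 is not read, since NR1H2 was well above background on no array.

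Of the LXRs, NR1H3, the form that is abundant in macrophages and liver, was measured by 4 probes and was not called. It lies on chromosome 2 at 15315283 to 15336785. Values were 7.61, 8.20 and 9.06 in DD pigs and 7.56, 8.07 and 8.45 in LW pigs, and 3 DD pigs lay above every LW pig (log2 FC 0.18 ± 0.15, adjusted p = 0.397). Its 4 probes had log2 FC of 0.08 to 0.27, all above 0 and none called. O15022, A_72_P077786 and A_72_P443928 were well above background on all 21 arrays, and A_72_P033031 on 14. O15022 and A_72_P443928 share 54 bases and so measured nearly the same stretch, with 0.27 ± 0.13 and 0.24 ± 0.12 (adjusted p = 0.19 and 0.199). With brightness as a covariate the log2 FC of NR1H3 was larger, at 0.43 ± 0.17 (adjusted p = 0.294). A probe with no gene symbol that is described as liver X receptor alpha, A_72_P228412, was no member. It was picked after its values were seen and is given under the other observations. It was called as higher in DD pigs, with a log2 FC of 0.55 ± 0.14 (limma over single probes, adjusted p = 0.0211).

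NR1H2, the LXR expressed in nearly all tissues, gave no usable value. Its probe was well above background on 0 of 10 DD and 0 of 11 LW arrays, and its sequence reads openly only in the reverse complement, as shown above. The gene lies on chromosome 6 at 55238536 to 55245457. Values were 3.83, 4.43 and 5.12 in DD pigs and 3.69, 4.34 and 4.75 in LW pigs, and no fold is given since neither group was well above background.

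SREBF2, the regulator of cholesterol synthesis and uptake, was called as higher in DD pigs. It lies on chromosome 5 at 6719484 to 6784724. Values were 13.4, 14.0 and 14.4 in DD pigs and 13.0, 13.5 and 14.2 in LW pigs. Of 10 DD pigs, 8 were above the LW median and 5 of 11 LW pigs were below every DD pig. The log2 FC was 0.38 ± 0.13, or 1.31-fold (limma, adjusted p = 0.0436), and the litter means differed by 0.36 (two-sided exact permutation, p = 0.0195 before adjustment). The call was lost without the litter block (limma, adjusted p = 0.0683) and in a limma fit of litter means (adjusted p = 0.0539). With no filter on low values it was lost too (limma, adjusted p = 0.0729). By chip the difference was 0.05, 0.42 and 0.71.

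Its single probe was bright, at a median of 451 times the local background on DD arrays and 463 times on LW arrays. Here, as at the upstream PPARD probe, the ratio to background was lower in DD pigs, though only slightly, while the normalized value was higher. With brightness as a covariate the log2 FC was 0.02 ± 0.12 (adjusted p = 0.995), and without chip 3 it was 0.24 ± 0.19 (adjusted p = 0.582). The call was lost when any 1 of 15 animals was left out (DD 1, 8, 10, 11, 16, 19, 21 or 23, or LW 5, 9, 12, 14, 18, 22 or 24), with log2 FC of 0.33 to 0.40 and adjusted p of at most 0.0899. A second probe, which the scanner files name srebf2 in lower case and which was therefore no member, gave -0.13 ± 0.15 (adjusted p = 0.589) and was well above background on all 21 arrays. With the 2 spellings joined the log2 FC was 0.12 ± 0.08 (adjusted p = 0.276).

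SREBF1, the regulator of fatty acid synthesis, had a log2 FC of almost the same size and was not called (0.39 ± 0.22, adjusted p = 0.212). It lies on chromosome 12 at 60733967 to 60750951. Values were 13.1, 14.1 and 15.2 in DD pigs and 12.6, 13.5 and 16.3 in LW pigs, so that the highest value of all belonged to an LW pig, LW 22 of chip 3. Still, 9 of 10 DD pigs were above the LW median, and without LW 22 the log2 FC was 0.55 ± 0.19 (adjusted p = 0.0622). Chips 1, 2 and 3 gave differences of 0.17, 1.14 and -0.37 (breed by chip interaction, p = 0.0251, limma adjusted p = 0.328), so that its sign on chip 3 was opposite to that on both other chips, as was that of RXRB (-0.19, -0.36 and 0.15).

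The 2 SREBF1 probes moved alike, with log2 FC of 0.30 ± 0.20 at A_72_P326973, near the start of the transcript record, and 0.48 ± 0.26 at A_72_P223967, near its end, neither of them called (adjusted p = 0.353 and 0.235). Both are rich in G and C, at 66.7% and 81.7% of their bases, where the other 19 member probes have 45% to 60%. The upstream probe, at base 297 of the record, is shown for that composition.
SREBF1 A_72_P326973: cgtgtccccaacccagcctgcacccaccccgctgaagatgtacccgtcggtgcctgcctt
A probe that the scanner files name Srebf1 gave -0.10 ± 0.13 (adjusted p = 0.658), and the probe named Ppard, given above, 0.07 ± 0.11 (adjusted p = 0.737). On chip 3 the 3 probes with other spellings had DD minus LW differences of -0.30 for Ppard, -0.64 for Srebf1 and -0.62 for srebf2.

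**Figure D3:**
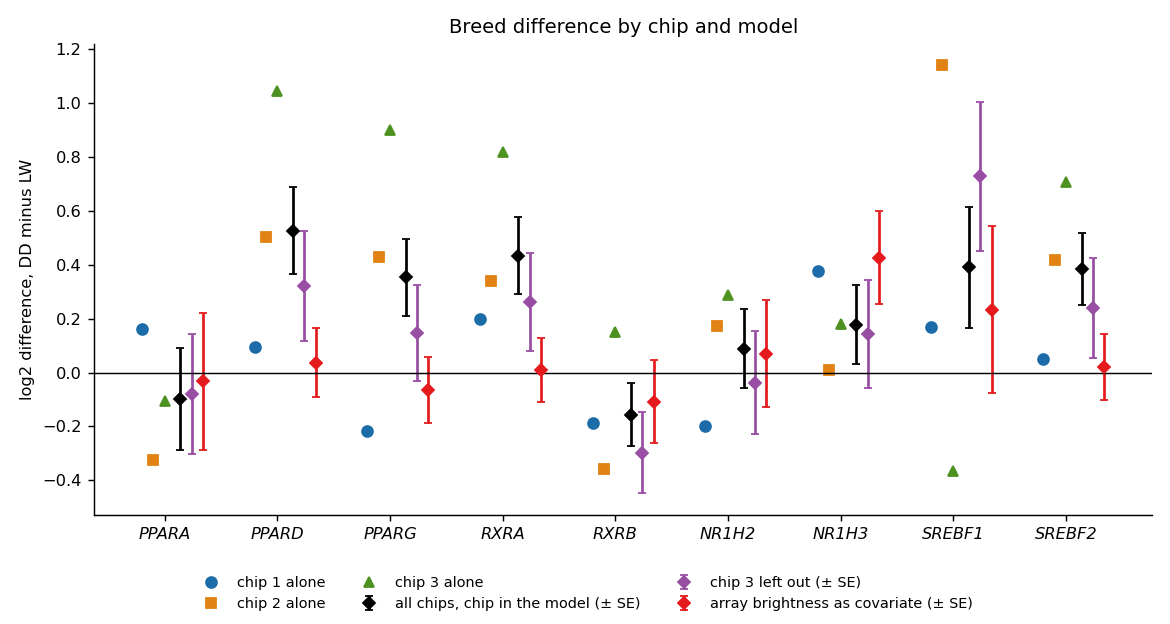
Log2 difference between DD and LW for each regulator on each chip alone (coloured symbols, difference of means) and in 3 limma fits (diamonds, ± SE): with chip in the model, without chip 3, and with the array's brightness as a covariate. For PPARD, PPARG, RXRA and SREBF2 the chip differences rise from chip 1 to chip 3 and the covariate fit lies within 1 SE of 0. SREBF1 is 1.14 on chip 2 and -0.37 on chip 3.

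**Figure D4:**
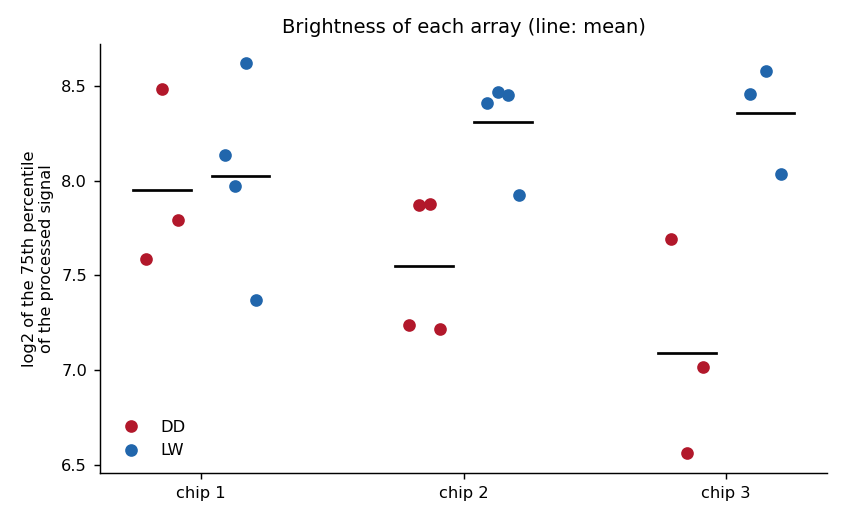
Brightness of each of the 21 arrays, as the 75th percentile of its processed signal in log2, by chip and breed, with the mean of each group as a line. The breed means are close on chip 1 (7.95 and 8.02) and farthest apart on chip 3 (7.09 and 8.36).

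The 3 called regulators and the brightness of the arrays thus moved together, and the part of brightness in the calls was not tested beyond the covariate fit, in which 0 of 9 members and 780 of 35578 features were called. Without chip 3, 0 members and 537 features were called. Genes of the T cell and erythroid marker lists were also called. Of 13 T cell genes all 13 had a log2 FC below 0 and 5 were called as lower in DD pigs (CD3G, CD8A and GATA3 with -0.64, -0.77 and -0.75), and the mean level of the list ran from 7.96 to 9.38 in DD pigs and from 8.44 to 9.49 in LW pigs. Of 7 erythroid genes, 3 were called as higher (EPB42, CA1 and CA2 with 1.06, 1.02 and 0.77), while AHSP had -0.27 and SLC4A1 -0.05, and the mean level ran from 11.09 to 12.43 in DD pigs and from 10.80 to 12.21 in LW pigs. The median went, once brightness was a covariate, from -0.50 to -0.13 for the T cell list and from 0.55 to 0.06 for the erythroid list, and 0 genes of either were called in that fit or without chip 3. One of 12 monocyte genes was called, CD163 at -0.72, and the list ran from 7.27 to 8.46 and from 7.41 to 8.32. Of the other lists, 0 of 10 granulocyte, 0 of 6 B cell, 1 of 10 cytotoxic (CTSW, -0.66), 1 of 6 platelet (PPBP, -0.94) and 0 of 7 adipose and liver genes were called, each to be read beside the 21.0% of all features. The part of cell composition in the regulators' values was not tested.

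The 2 features most like each fully detected regulator, by the correlation over the 21 animals after breed and chip means were removed, were DLL3 and TINAG for PPARD (r = 0.97 each), ITSN1 and STARD10 for RXRA (0.90 each), EI24 and CDH23 for SREBF2 (0.94 each), and ENPP7 and RUNX3 for SREBF1 (0.98 each). They were chosen among 3407 named features that were well above background on every array, and features of the same arrays share their brightness. Correlated in the same way with array brightness, PPARD had r = -0.86, RXRA -0.85, SREBF2 -0.79 and SREBF1 -0.18. The part of brightness in these likenesses was not tested.

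The genes around the regulators were read from lists of their targets, partners and processing proteins. Of 10 LXR target genes tested, 1 was called as lower and 1 as higher in DD pigs, or 20% beside 21.0% of all features, with a list median of 0.09. ABCA1, the exporter that loads cholesterol onto apolipoprotein A-I, had a mean of 8.26 ± 0.54 in the DD pigs (SD, n = 10) and of 9.23 ± 0.30 in the LW pigs (SD, n = 11; log2 FC -0.98 ± 0.18, limma adjusted p = 0.00136). It was called with every animal left out in turn, but had -0.52 with brightness as a covariate (adjusted p = 0.167) and -0.75 without chip 3 (adjusted p = 0.114). APOE, the apolipoprotein that macrophages secrete, was higher by 0.53 ± 0.12 (adjusted p = 0.00927; with the covariate 0.44, adjusted p = 0.206, and without chip 3 0.52, adjusted p = 0.145). MYLIP, a ubiquitin ligase, had 0.01 ± 0.13, and ABCG1 was well above background on no array.

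Of 40 PPAR target genes, 4 were called as higher and 2 as lower, or 15.0% beside 21.0% of all features. The list median was -0.05, beside -0.04 over all features. CD36, a fatty acid receptor, was higher by 0.78 ± 0.17 (adjusted p = 0.00551) and PNPLA2, a triglyceride lipase, by 0.63 ± 0.17 (adjusted p = 0.0173). ACADL, an acyl-CoA dehydrogenase of fatty acid oxidation, was lower by -0.54 ± 0.10 (adjusted p = 0.00206), and SCP2 by -0.27 ± 0.09 (adjusted p = 0.0382). The usual reporters of PPAR activity were not called, with -0.14 ± 0.14 for CPT1A and -0.31 ± 0.15 for PLIN2, while PDK4 was well above background on at most 1 array of each breed at any of its probes. In the covariate fit and without chip 3, 0 of the 40 were called.

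Of 18 SREBP-2 target genes, 3 were called as lower and 1 as higher, or 22.2% beside 21.0% of all features, and 12 had a log2 FC below 0 (median -0.17). STARD4, a cytosolic sterol carrier, had a mean of 5.99 ± 0.27 in the DD pigs (SD, n = 10) and of 6.86 ± 0.21 in the LW pigs (SD, n = 11), a log2 FC of -0.88 ± 0.11 (limma, adjusted p = 1.3e-05). It was the gene of these lists that kept its call in all 16 alternatives that give 1 value per gene, the covariate fit (-0.84, adjusted p = 0.00163) and the fit without chip 3 (-0.74, adjusted p = 0.0122) among them, and with each animal left out. HSD17B7, an enzyme of the late steps of cholesterol synthesis, was lower by -0.79 ± 0.15 (adjusted p = 0.00149; -0.67 with the covariate, adjusted p = 0.0735, and -0.77 without chip 3, adjusted p = 0.0794). SC4MOL, a sterol methyl oxidase that the array also carries under its current symbol MSMO1, had -0.39 ± 0.13 (adjusted p = 0.0443) under the older symbol and -0.28 ± 0.12 (adjusted p = 0.0931) under the current one. Both symbols are counted among the 18, so 1 of the 3 lower calls is a gene whose other entry was not called. TMEM97 had 0.43 ± 0.15 (adjusted p = 0.0476), though -0.02 with the covariate.

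Of 15 SREBP-1 target genes, 3 were called, or 20% beside 21.0% of all features. These 3 were lower in DD pigs, and FASN, the fatty acid synthase, was not (0.07 ± 0.15). ELOVL1, an elongase of long fatty acids, had -0.39 ± 0.10 (adjusted p = 0.0127). SCD5 and GPAM were called too (limma, adjusted p = 0.0106 and 0.0221) but were well above background on no DD array and on 5 of 11 LW arrays each, so no fold is given. The DD mean of SCD5 was 3.56, under the limit of 3.97 below which probes were removed, and the LW mean was 4.39. In the covariate fit and without chip 3, 0 of the 15 were called.

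Of 15 genes that move, cut, hold or degrade the SREBPs, 12 had a log2 FC below 0, and 2 were called as lower and 1 as higher (median -0.22), or 20% beside 21.0% of all features. SEC23A, a coat protein of the vesicles that carry SCAP and SREBP, had -0.35 ± 0.11 (adjusted p = 0.0298), FBXW7, a ligase subunit that marks nuclear SREBP for degradation, had -0.30 ± 0.09 (adjusted p = 0.0319), and ERLIN2, a protein of the endoplasmic reticulum membrane, had 0.75 ± 0.21 (adjusted p = 0.0226). SCAP had -0.26 ± 0.13, the site 1 protease gene MBTPS1 -0.27 ± 0.10 and INSIG1 0.17 ± 0.09, none of them called. INSIG2 was well above background on 1 DD and 3 LW arrays, and MBTPS2 was not among the features tested. With brightness as a covariate, the median of the list was 0.00 and 0 of the 15 were called.

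Coregulators and partners gave shares close to the background. Of 17 coactivators and corepressors, 4 were called, NCOA4 (0.88 ± 0.23) and TBL1XR1 (0.33 ± 0.11) as higher, and HDAC3 (-0.36 ± 0.11) and CREBBP (-0.35 ± 0.12) as lower. Of 14 partner transcription factors, CEBPA (0.86 ± 0.23) and CEBPB (0.47 ± 0.12) were called as higher and MLX (-0.58 ± 0.16) as lower. Of 21 other nuclear receptors, 4 were called as higher and 1 as lower. NR0B2, the small heterodimer partner that represses LXR targets, had 1.03 ± 0.30, the retinoic acid receptor RARA 0.84 ± 0.22, the xenobiotic receptor NR1I2 0.80 ± 0.29, and the clock-linked NR1D2 -0.51 ± 0.12. RXRG was called at 0.47 ± 0.16 but was well above background on at most 2 DD arrays and 1 LW array at any of its probes. NR0B2 had -0.01 and NR1I2 had -0.02 with brightness as a covariate, and in that fit and without chip 3, 0 genes of these 3 lists were called.

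**Figure D5:**
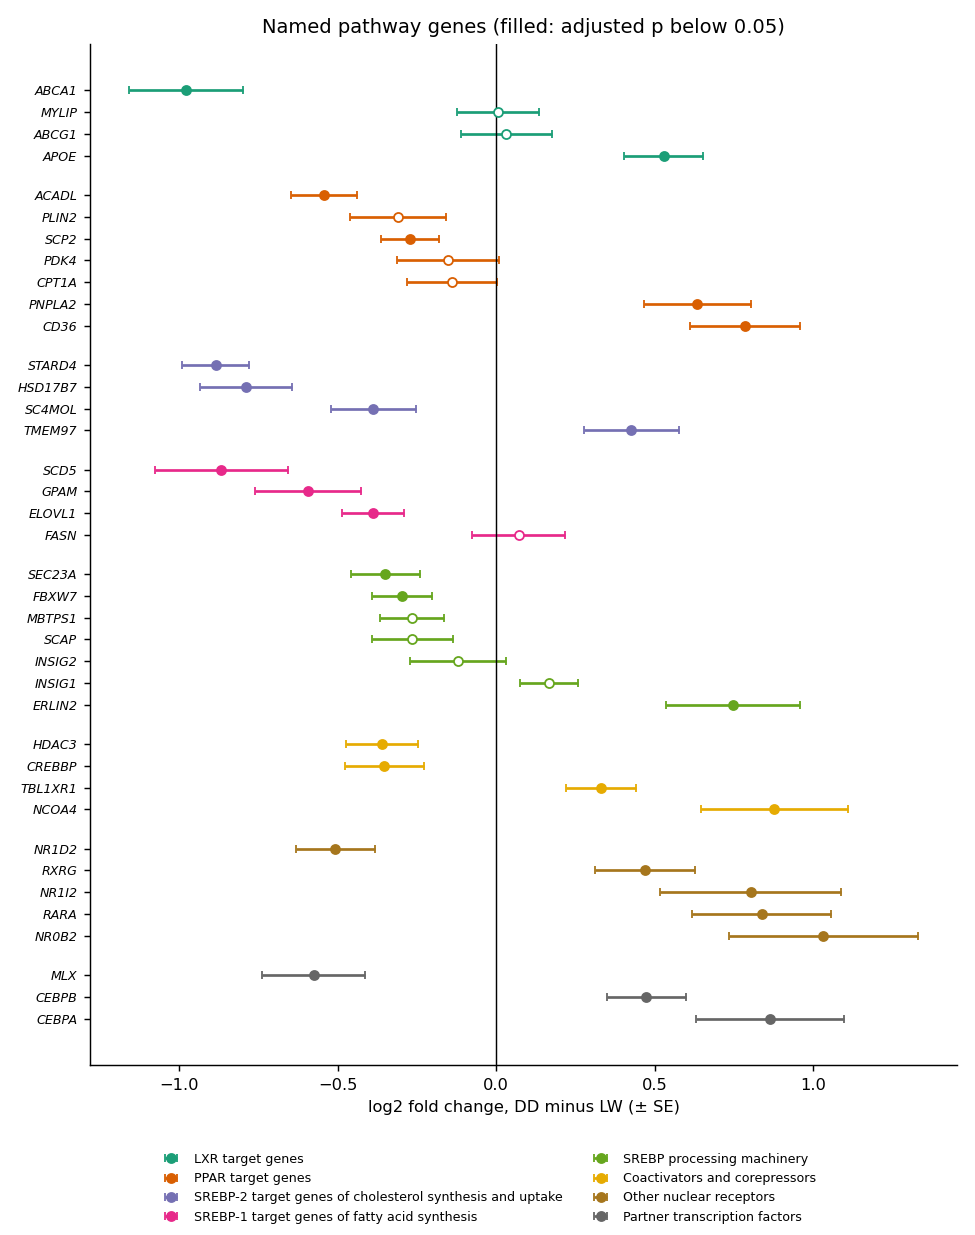
Log2 fold change (DD minus LW, ± SE) of the named target, processing, coregulator, receptor and partner genes, grouped by list and ordered by size within each. Filled points were called (limma, adjusted p below 0.05). ABCA1 at -0.98 and STARD4 at -0.88 lie lowest, and NR0B2 at 1.03 highest.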

How the data were processed

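The authors extracted the scans with Agilent Feature Extraction 10.7.3.1 and deposited, for each array, spot and background intensity values with flags. They also deposited log2 values of all arrays, made by background correction and quantile normalization once outlier arrays had been removed. They named a technical bias of the third chip. Here the deposited log2 matrix was used without further normalization. The 25% of probes with the lowest mean were removed and kept probes of a gene were averaged by the scanner files' name. The model was fitted with limma 3.58.1 (lmFit, duplicateCorrelation with a consensus correlation of -0.11, eBayes) in R 4.3.3, with Python 3.11.15 for permutations and figures. Probes well above background and their ratio to the local background came from the flags and intensity values deposited. The log2 matrix columns of all 21 arrays were used, and of the scanner files only the columns needed were read. Sequences are those in the scanner files, positions come from RefSeq genes of Sscrofa11.1, and no genome sequence was used. Steps were tested on simulated data. No saturated spot occurred (0).

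The members and gene lists were chosen with earlier results of these data known. Named are the 9 members, the 3 highest and 3 lowest called genes of each list, the 2 features most like each fully detected member, and a set of 16 pathway genes whatever their values; some of these are not reported here. Probes with other spellings of a member's name were added after the data were seen. The labels do not say whether pigs beyond the litters were independent. Precision is limited by the number of arrays.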

Additional observations from a re-analysis of the deposited data

Results flagged for a closer look

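RXRB in the pig DD 16 was 5.10, lower than in the other 9 DD pigs by a gap of 0.61, which is 0.509 of the range of the group and above the limit of Dixon's test for 10 samples. About 1 group in 20 passes this limit by chance. The DD group of each of the 9 regulators was tested at its lowest and highest value, and this was the only one that passed. The RXRB probe A_72_P205407 was at 4.96 in this pig. The LW group of 11 was not tested for such values.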

How the results depend on the processing

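The count of 3 members called fell to 1 with no filter, no sow block or chip 2 left out, and to 0 with no chip term, chip 3 left out or brightness as a covariate, and it was 0 to 4 with each animal left out. The features called numbered 7460, and 4670 with no filter, 5106 with no sow block, 1929 with no chip term, 537 without chip 3, 780 with the covariate, and 3761 to 10051 with each animal left out. Scaling to the 75th percentile shifted the median of all features from -0.04 to 0.06 and the share of calls that were higher in DD pigs from 54.3% to 69.3%, and 3 members were called. Signs turned for PPARA (0.13 with no filter, 0.21 without chip 2, and -0.19 to 0.023 with each animal left out), NR1H2 (-0.11 without chip 2, -0.037 without chip 3), PPARG (-0.065 with the covariate), RXRB (0.020 without chip 2), SREBF1 (-0.010 without chip 2), NR1H3 minus NR1H2 (-0.092 with the 75th percentile) and SREBF2 minus SREBF1 (0.0065 with recomputed values). In limma, PPARD minus PPARA (0.63) and RXRB minus RXRA (-0.59) passed. Values recomputed from the intensities correlated with the deposited ones at 0.998 to 0.999 over probes. Of 15 alternatives that give 1 value per gene, without the joined spellings and leaving out 1 animal, PPARD was called in 11, RXRA in 7 and SREBF2 in 8, each with its sign kept. The causes were not tested. No paired analysis was possible because DD and LW pigs share no individual numbers. Low signal over background limits PPARA, NR1H2 and the tiling PPARG probes. Signal was not much higher at the RXRA probe (medians of 3.14 and 3.03 times background on DD and LW arrays) and the downstream PPARD probe (3.15 and 3.02).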

Other observations

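A probe that carries no gene symbol but is described in the scanner files as liver X receptor alpha, A_72_P228412, was well above background on all 21 arrays and was no member by the naming rule. Its log2 values were 7.31, 7.64 and 8.20 (lowest, median and highest) in DD pigs and 6.76, 7.11 and 7.63 in LW pigs, and all 10 DD pigs were above the LW median. Its log2 FC was 0.55 ± 0.14 (limma over single probes, adjusted p = 0.0211), with DD minus LW differences of 0.90, 0.44 and 0.32 on chips 1, 2 and 3, an order opposite to that of PPARD. It was picked after its values were seen.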
